A study of Mus musculus with 6 samples.

Results

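The genes described are 10 that beta-catenin signalling induces or that act back on the Wnt pathway, in the calvaria of newborn mice. They are Axin2, Nkd1, Nkd2, Notum, Apcdd1, Lef1, Tcf7, Znrf3, Rnf43 and Lgr5, named from what is known of the pathway but chosen with earlier results of these data in view, and all 10 were found among the 24346 gene names measured. The calvaria is the skull roof, and the interparietal and occipital bones were part of the dissection while ear cartilage was not. Of 6 libraries, 3 controls carried the genotype Pth1rfl/fl, floxed alleles of the receptor for parathyroid hormone and its related protein. The other 3 were labelled mutant and carried Prx1-Cre;Pth1rfl/fl, the same alleles with a Cre transgene whose promoter is known to act in mesenchyme of the limbs and skull. Both groups share the floxed alleles, and cells outside that mesenchyme are not targeted by this Cre.

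Wnt proteins bind Frizzled and LRP receptors and keep beta-catenin from being destroyed. Beta-catenin then joins DNA-binding factors of the TCF/LEF family and switches on target genes, many of which dampen the same signal. In the skull, Wnt signalling is known for its part in the growth of bone and in the stem cells of the sutures, the fibrous joints between the flat bones, which Axin2 marks in mice.

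RefSeq promoters were read for 6 of the 10 genes, namely Axin2, Nkd1, Nkd2, Lef1, Tcf7 and Rnf43. Apcdd1, Notum, Znrf3 and Lgr5 were left out of this set, so the motif counts of members do not cover them. The 250 bases before the start of Axin2, Nkd2 and Lef1 are shown. Axin2 and Nkd2 are the pair whose levels ran most closely together with Axin2 as the reference, and Lef1 is a gene whose groups overlapped. The build is GRCm38.p6, and capitals mark CTTTG or its reverse complement CAAAG, the short core of the sequence that TCF/LEF factors are known to recognise.
Axin2, chr11:108920099-108920348, plus strand: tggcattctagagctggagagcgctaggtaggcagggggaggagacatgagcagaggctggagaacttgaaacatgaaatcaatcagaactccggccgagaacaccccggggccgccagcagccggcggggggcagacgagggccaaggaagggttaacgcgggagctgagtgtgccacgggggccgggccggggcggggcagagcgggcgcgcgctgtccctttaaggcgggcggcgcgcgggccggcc
Nkd2, chr13:73847632-73847881, minus strand: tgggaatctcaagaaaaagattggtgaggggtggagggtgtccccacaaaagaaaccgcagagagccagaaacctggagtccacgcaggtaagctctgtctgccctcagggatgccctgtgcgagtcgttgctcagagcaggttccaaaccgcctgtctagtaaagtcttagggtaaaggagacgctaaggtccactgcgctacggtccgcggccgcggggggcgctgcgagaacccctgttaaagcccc
Lef1, chr3:131110073-131110322, plus strand: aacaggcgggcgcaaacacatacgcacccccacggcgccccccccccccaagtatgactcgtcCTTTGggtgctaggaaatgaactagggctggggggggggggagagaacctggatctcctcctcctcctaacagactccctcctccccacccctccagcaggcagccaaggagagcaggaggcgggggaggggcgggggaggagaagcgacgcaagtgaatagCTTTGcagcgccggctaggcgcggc
Lef1 held 2 matches in this stretch, at a GC content of 66.4%, and Axin2 and Nkd2 held 0, at 69.2% and 58.4%. Lef1 had several listed starts, whose stretches held from 1 to 3 matches, while Axin2 and Nkd2 had 1 each. The longer motif CTTTGAT, with its reverse complement ATCAAAG, was searched on both strands of the windows of 300 bases that run 50 bases past the start. It was in 0 of the 11 windows listed for these 6 genes, and in 3.73% of all 32851 promoter windows. The 5-letter core, which lies within the longer motif, was in 53.9% of them.

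RNA was measured as FPKM, a count of fragments divided by transcript length and by the depth of the library, so levels can be set side by side between genes. Bone genes were abundant, with Col1a1, the main collagen of bone, between 9427 and 13131 FPKM. The targeted Pth1r had a control mean of 94.8 ± 6.55 FPKM, below the 131 ± 9.45 of the others (SD, n = 3 each), which goes against the labels. No label says which exons the floxed alleles lose, and the level of the whole gene may not check their removal, so directions below are those of the labels alone. Control 2 stood apart with 56.6 FPKM of Oc90, an inner ear gene, against 1.00 or less elsewhere. Other libraries stood apart in other markers. Control 1 had the lowest sum of 4 meninges markers, at 59.8 FPKM against 147 or more elsewhere. Library 2 labelled mutant had the highest sum of 6 neural markers, at 94.6 FPKM against 48.4 or less elsewhere. By Xist and Y-linked genes, controls 1 and 3 and library 1 labelled mutant were female and the other 3 libraries male. Read totals are not given in the sources used here. Steps in the smallest values gave relative depths from 0.703 to 1, with control 1 set to 1.

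In controls, Tcf7 was the most abundant of the 10 at 29.2 ± 1.28 FPKM (SD, n = 3), above every value of the next genes. Apcdd1 at 14.5 ± 5.27, Notum at 12.9 ± 3.33, Nkd1 at 10.01 ± 2.15 and Axin2 at 9.66 ± 1.896 FPKM followed, and these neighbours overlapped each other. Nkd2 at 5.74 ± 0.88 FPKM and Lgr5 at 4.72 ± 0.28 FPKM came next, without overlap between them. Lef1 at 2.60 ± 0.84 and Znrf3 at 2.33 ± 0.17 FPKM overlapped, and Rnf43 was lowest at 0.43 ± 0.12 FPKM (SD, n = 3 each). In the libraries labelled mutant, Notum stood above Apcdd1 with no overlap, and Apcdd1, Axin2 and Nkd1 lay together at 6.90 ± 0.99, 6.59 ± 0.34 and 6.38 ± 0.99 FPKM (SD, n = 3 each).

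In the libraries labelled mutant, 5 of the 10 genes lay below every control, namely Apcdd1, Lgr5, Nkd1, Axin2 and Nkd2, by 1.36-fold to 2.10-fold. The other 5, Notum, Lef1, Tcf7, Znrf3 and Rnf43, had overlapping groups and ratios of means between 0.698 and 0.918. Groups lay apart in this direction in 6.79% of the 13180 genes tested, which were those with a mean of at least 1 FPKM. No member passed an adjusted p of 0.05 in limma with Benjamini-Hochberg adjustment over all tested genes, against 0.0835% of tested genes that fell and 0.524% that rose. At an unadjusted p under 0.05, the limma fit held 5 members, all lower, beside 4.62% of tested genes on that side. Rnf43, with a mean under 1 FPKM, was not among the 9 members tested. All 9 had a negative log2 difference, as did 49.5% of tested genes, and their median was -0.36 against 0.0015 for all tested genes.

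**Figure D1:**
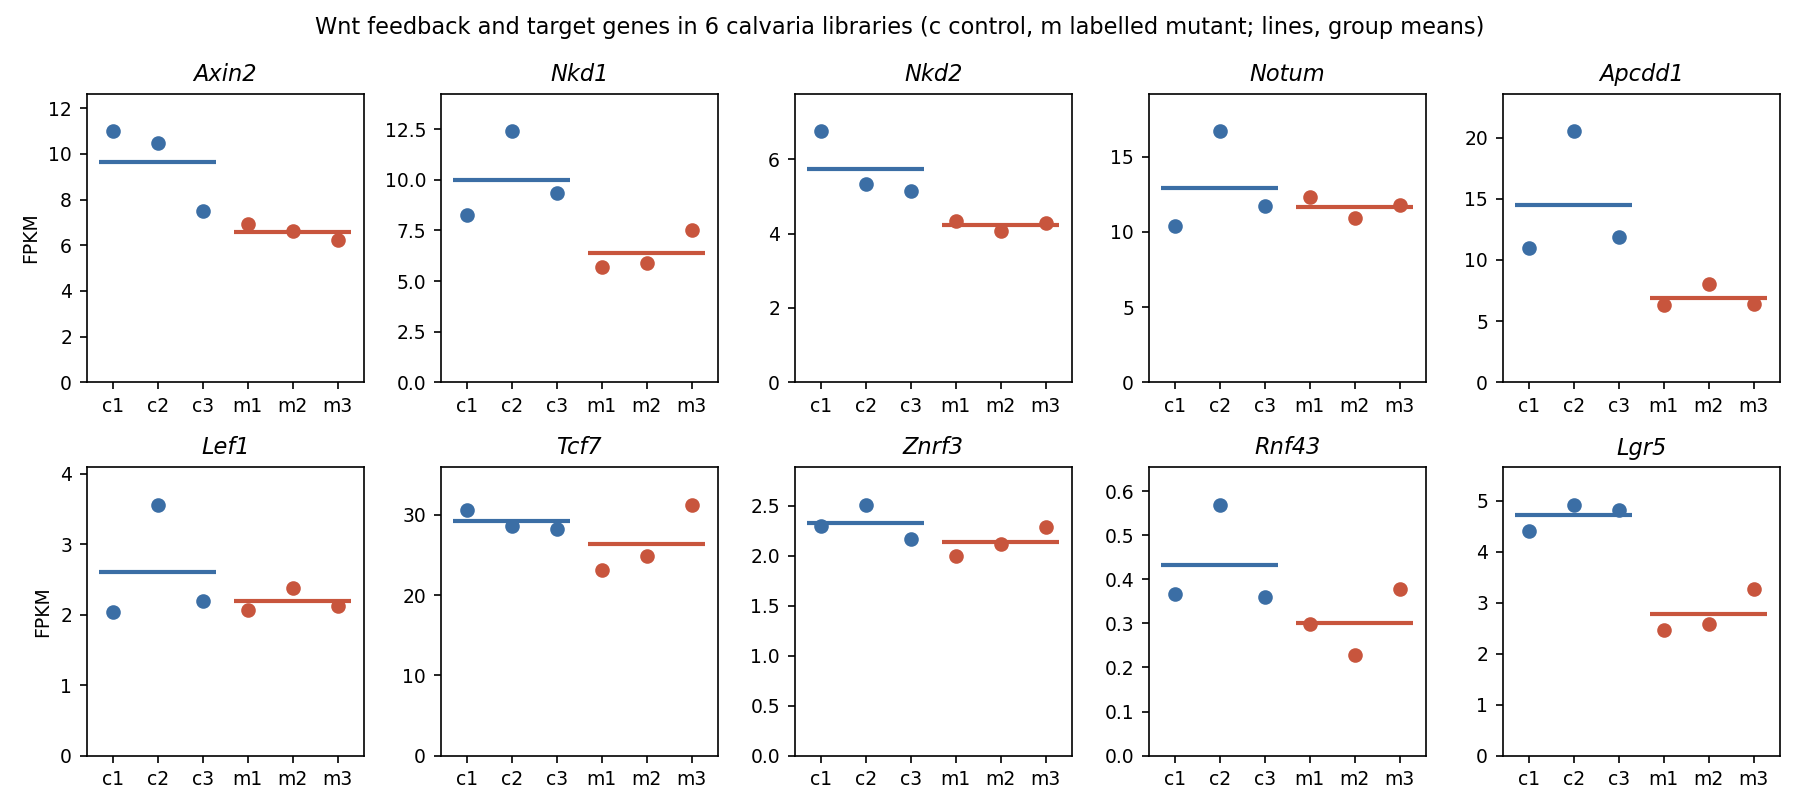
Level of each gene in FPKM (vertical axis, from 0) in each of the 6 libraries (horizontal axis; c1 to c3 controls, m1 to m3 labelled mutant), with lines at the group means. The 5 genes Axin2, Nkd1, Nkd2, Apcdd1 and Lgr5 have every red point below every blue one, while control 2 is the highest library in 7 of the 10 panels.

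Among the intracellular feedback genes, Axin2, the scaffold that helps destroy beta-catenin and is itself induced by it, had 11.0, 10.5 and 7.49 FPKM in the controls and 6.92, 6.61 and 6.24 FPKM among libraries labelled mutant. Control 3 lay closest to the 3 low libraries, and the groups did not overlap. The log2 difference was -0.48 ± 0.13 (SE), with a 95% interval from -0.79 to -0.16 (limma, Benjamini-Hochberg adjusted p = 0.237). An exact two-sided permutation test of the means gave p = 0.1, the smallest that 3 values against 3 allow, for Axin2 and for each of the other 4 genes whose groups lay apart. Axin2 spans bases 108920349 to 108950783 on the plus strand of chromosome 11 in GRCm38, and an antisense gene, Gm11670, overlaps it. Axin1, its constitutive relative, had 16.5 ± 0.87 and 15.96 ± 0.31 FPKM (SD, n = 3 each). The ratio of Axin2 to Axin1 within a library went from 0.584 ± 0.106 to 0.413 ± 0.016 (SD, n = 3 each), with no overlap (exact permutation p = 0.1). Axin1 lay between 15.7 and 17.5 FPKM in every library, so the ratio largely repeats the levels of Axin2, and its p adds little to that of Axin2.

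Nkd1 and Nkd2 encode the naked cuticle proteins, which bind Dishevelled, the adaptor behind the Wnt receptors, and damp the signal. Nkd1 had 8.26, 12.4 and 9.37 FPKM among controls against 5.71, 5.90 and 7.52 FPKM among libraries labelled mutant. Its groups were apart by under 1 FPKM, between control 1 and library 3 labelled mutant. The log2 difference was -0.57 ± 0.16 (SE; 95% interval -0.94 to -0.20; limma adjusted p = 0.232). Nkd2 had 6.76, 5.33 and 5.15 FPKM among controls against 4.33, 4.08 and 4.29 FPKM in the others. The labelled mutant libraries were close to each other, and control 1 was the high one. Its log2 difference was -0.36 ± 0.10 (SE; 95% interval -0.60 to -0.12; limma adjusted p = 0.245). Nkd1 lies at positions 88521354 to 88594884 of chromosome 8 on the plus strand, and Nkd2 at 73818534 to 73847631 of chromosome 13 on the minus strand. The ratio of Nkd2 to Nkd1 within a library overlapped between the groups, at 0.599 ± 0.199 and 0.673 ± 0.095 (SD, n = 3 each; exact permutation p = 0.6).

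Apcdd1 and Notum act outside the cell. Apcdd1, a membrane protein that binds Wnt and LRP5 and inhibits the signal, had the largest difference of the 10, with 11.0, 20.5 and 11.9 FPKM among controls against 6.30, 8.04 and 6.36 FPKM among libraries labelled mutant. Control 2 was far above the other controls, and library 2 was the highest of its group. The log2 difference was -0.93 ± 0.22 (SE; 95% interval -1.45 to -0.40; limma adjusted p = 0.178). The gene lies on the plus strand of chromosome 18, from 62922231 to 62961179. Notum, a secreted enzyme that removes the lipid Wnt needs to act, had 10.4, 16.7 and 11.7 FPKM among controls against 12.3, 10.9 and 11.8 FPKM among libraries labelled mutant. Control 2 was the one high library, and the groups overlapped. The log2 difference of -0.11 ± 0.16 (SE) had a 95% interval from -0.48 to 0.26 (limma adjusted p = 0.884). Without control 2 the difference of Notum turned to 0.07 (limma adjusted p = 0.854). Notum lies on the minus strand of chromosome 11, from 120653788 to 120661175, and the antisense genes Notumos and Myadml2os overlap it.

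Znrf3 and Rnf43 are related ubiquitin ligases that remove Frizzled receptors from the cell surface, and Lgr5 is a receptor of R-spondins, the secreted proteins that hold those ligases back. Lgr5 had the smallest p of the 10. It had 4.40, 4.93 and 4.82 FPKM among controls against 2.47, 2.59 and 3.28 FPKM among libraries labelled mutant, with both groups narrow and well apart. Its log2 difference was -0.60 ± 0.10 (SE), with a 95% interval from -0.85 to -0.36 (limma, Benjamini-Hochberg adjusted p = 0.0711), and 1.70-fold less in means of FPKM. It passed in 1 of the 15 other settings tried for it, the one that weights libraries by their fitted quality (log2 difference -0.67, limma adjusted p = 0.0235). Lgr5 lies on the minus strand of chromosome 10, from 115450311 to 115587780, overlapped by A930009A15Rik on the plus strand, which was at 0 in 5 libraries and at 0.286 FPKM in control 3.

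Znrf3 had 2.30, 2.51 and 2.17 FPKM among controls against 2.001, 2.11 and 2.29 FPKM among libraries labelled mutant. The groups overlapped, and the log2 difference was -0.08 ± 0.09 (SE; 95% interval -0.30 to 0.13; limma adjusted p = 0.837). Rnf43, at 0.367, 0.569 and 0.360 FPKM among controls against 0.300, 0.228 and 0.378 FPKM in the others, also overlapped (exact permutation p = 0.3). Znrf3 lies on the minus strand of chromosome 11, from 5276324 to 5444847, and Rnf43 at 87662722 to 87735539 of the same chromosome on the plus strand.

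Lef1 and Tcf7 are DNA-binding partners of beta-catenin and are themselves induced by it. Lef1 had 2.04, 3.56 and 2.19 FPKM among controls against 2.06, 2.39 and 2.12 FPKM among libraries labelled mutant. Apart from control 2, all libraries lay between 2.04 and 2.39 FPKM. Its log2 difference was -0.15 ± 0.16 (SE; 95% interval -0.54 to 0.24; limma adjusted p = 0.837) and turned to 0.03 without control 2 (limma adjusted p = 0.965). Tcf7 had 30.6, 28.7 and 28.3 FPKM among controls against 23.1, 24.9 and 31.3 FPKM among libraries labelled mutant, where library 3 was above every control. Its log2 difference was -0.15 ± 0.11 (SE; 95% interval -0.41 to 0.11; limma adjusted p = 0.73). Lef1 spans positions 131110471 to 131224356 of chromosome 3 on the plus strand and Tcf7 52252371 to 52283014 of chromosome 11 on the minus strand, each overlapped by an antisense gene. The intervals of the 4 tested genes whose groups overlapped all held 0, and none reached down to -0.60, the difference of Lgr5. Those of Notum and Lef1 did hold the differences of Axin2 and Nkd2, -0.48 and -0.36, and that of Tcf7 held the difference of Nkd2. The intervals therefore do not separate these genes from all of those whose groups lay apart.

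**Figure D2:**
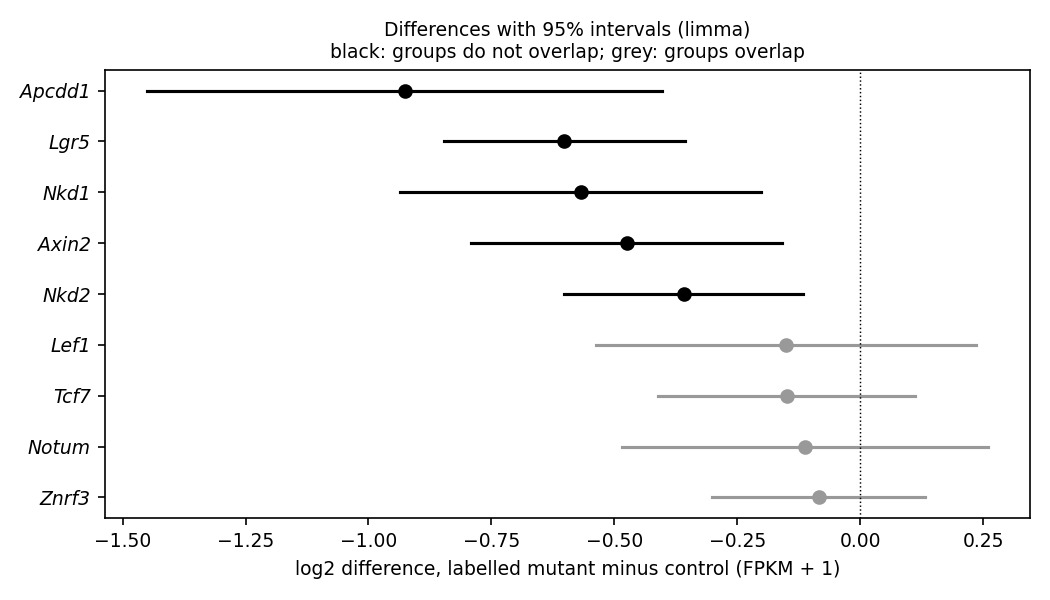
Log2 difference between the libraries labelled mutant and the controls, in log2(FPKM + 1) (horizontal axis), for the 9 tested genes (vertical axis), with lines for 95% intervals from limma. The 5 black genes, whose groups did not overlap, have intervals below 0, and the 4 grey ones have intervals that hold 0.

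Single libraries moved these counts. Without library 3 labelled mutant, 8 of the 10 genes lay below every control, as did 12.9% of tested genes in that smaller comparison. That library was the highest of its group for 5 of the 10, namely Nkd1, Tcf7, Znrf3, Rnf43 and Lgr5, as it was for 39.5% of tested genes. Control 2 was the highest control for 7 of the 10, as it was for 37.3% of tested genes, and control 3 for 0 of the 10 against 28% of tested genes. Without control 2, Axin2, Nkd1, Nkd2, Apcdd1 and Lgr5 still lay apart. Within the females, 2 controls and 1 library labelled mutant, 9 of the 10 genes were lower in the latter, as were 50.6% of tested genes, with Notum the exception. Within the males all 10 had a lower mean in the 2 libraries labelled mutant, as did 47.3% of tested genes. The 1 male control, however, is control 2, the library that stood apart in Oc90. Groups lay apart on that side for 8 of the 10 among females and 9 of the 10 among males, beside 33.2% of tested genes in each sex. Axin2, Nkd1, Nkd2, Apcdd1 and Lgr5 were lower in both sexes, with female ratios between 0.535 and 0.748 and male ratios between 0.351 and 0.785.

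Whether the 10 genes move together was read from their log2 levels over the 6 libraries. Of 45 pairs, 43 had a positive Pearson r, with a median of 0.67 and a range from -0.03 to 0.93. Without control 2, 30 of 45 pairs were positive and the median was 0.42. With each value taken as its deviation from its group mean, 32 of 45 were positive, and the median was 0.36. These r are descriptions, since the libraries share their groups. With control 2 left out Notum and Lef1 had mostly negative r with the other genes.

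**Figure D3:**
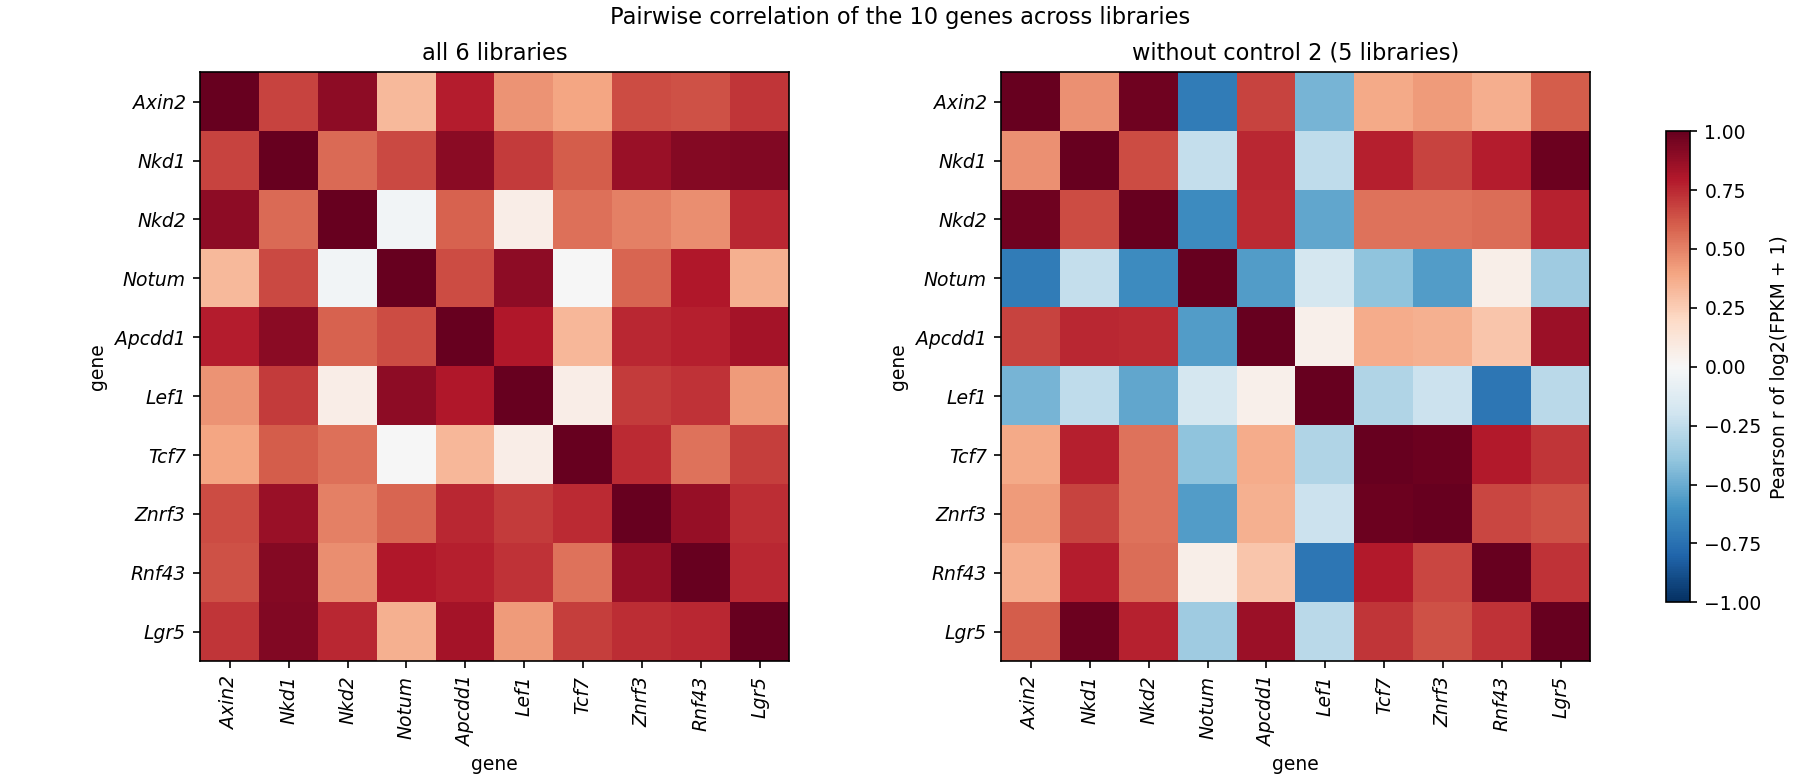
Pearson r of log2(FPKM + 1) between each pair of the 10 genes (both axes), as colour from -1 to 1, over all 6 libraries on the left and over 5 libraries without control 2 on the right. Nearly all pairs are positive on the left (43 of 45), and the rows of Notum and Lef1 turn mostly blue on the right, where 30 of 45 are positive.

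With Axin2 as the reference, all 9 other genes had a positive r over 6 libraries, as did 50% of tested genes. The permutation p below treat the 6 libraries as exchangeable and so take in the difference between the groups, which Axin2 and several of the others share. Nkd2 had a Pearson r of 0.898 (exact permutation p = 0.00417, Benjamini-Hochberg adjusted p = 0.0375) and a Spearman rho of 0.943 (exact permutation p = 0.0167, adjusted p = 0.15). Without controls 1 and 2, the libraries farthest from the median of Axin2, r was 0.822 over the remaining 4. Those are control 3 and the libraries labelled mutant, so such an r still takes in the difference between the groups. The r of Nkd2 in deviations from group means was 0.654. Apcdd1 followed with r = 0.784 and rho = 0.657 (exact permutation p = 0.0694 and 0.175, adjusted 0.277 and 0.535). Its r was 0.786 without controls 1 and 2 but 0.268 in deviations from group means. Lgr5 had r = 0.716 and rho = 0.6 (exact permutation p = 0.142 and 0.242), and Nkd1 had r = 0.674 and rho = 0.6 (exact permutation p = 0.157 and 0.242), with adjusted p of 0.277 for r and 0.535 for rho in both. Their r of deviations from group means were -0.37 and -0.04, so their positive r with Axin2 rested on the difference between groups. Znrf3, Rnf43, Lef1, Tcf7 and Notum had r between 0.324 and 0.655, with exact permutation p between 0.183 and 0.613, and rho between -0.14 and 0.543. Without controls 1 and 2, the r of Znrf3, Tcf7 and Lef1 turned negative, at -0.41, -0.27 and -0.04. Groups of 3 are too few for a correlation within each group.

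The pair with the highest r of the 45 was Nkd1 with Lgr5, at 0.929, and 0.979 without control 2. Apcdd1 with Nkd1 had 0.906, and Nkd1 with Rnf43 0.915. Among the deviations from group means, Apcdd1 with Lef1 had the highest r, at 0.991, and it was 0.05 in the levels without control 2. In all, 9 pairs were above 0.8 over 6 libraries and 4 without control 2.

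Axin2 ran with the level of cartilage genes across the libraries, a relation looked at after the values were seen. Both measures separate the groups, so the r are given as descriptions with no test. The summed level of 8 cartilage markers, among them Col2a1, the main collagen of cartilage, was 1817, 1822 and 830.5 FPKM among controls against 467, 334 and 382 FPKM among libraries labelled mutant. Control 3 was the control nearest to the low group in both measures. The r of Axin2 with the log2 sum was 0.972, with rho = 0.886, 0.889 without controls 1 and 2 and 0.949 in deviations from group means. Nkd2 had r = 0.91 and rho = 0.943, and 0.605 in deviations. Lgr5 had r = 0.841 and rho = 0.771, Apcdd1 0.834 and 0.714 and Nkd1 0.789 and 0.771. Rnf43, Znrf3, Tcf7, Lef1 and Notum, whose groups overlapped, had r between 0.383 and 0.731 and rho between 0.029 and 0.714. Without controls 1 and 2, their r ran from -0.286 for Lef1 to 0.525 for Rnf43. The r of deviations of Lgr5, Apcdd1 and Nkd1 were -0.21, 0.25 and 0.13. In 7 of the 8 cartilage markers the libraries labelled mutant lay below every control, as in 6.79% of tested genes, Comp being the exception. In limma 2 of the 8, Matn1 and Col9a3, fell, beside 0.0835% of tested genes. In whole tissue, fewer cells of a type and less RNA per cell cannot be told apart, and the part of cartilage in these differences was not tested.

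**Figure D4:**
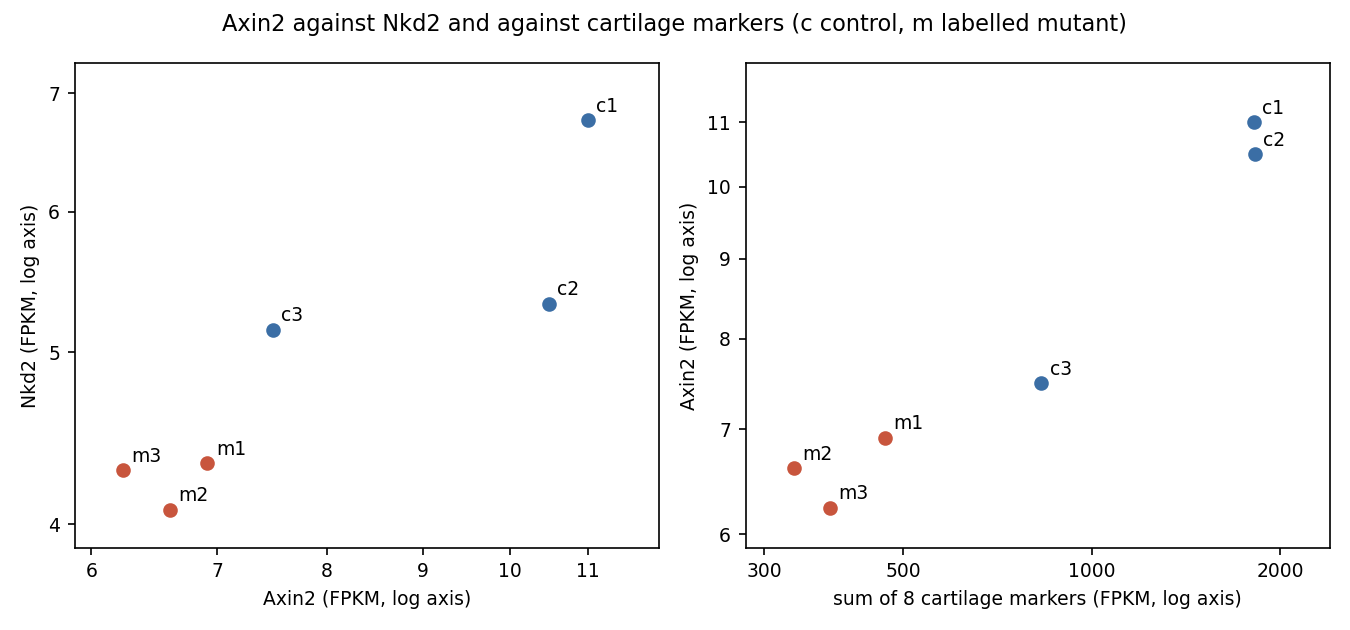
Axin2 against Nkd2 on the left and against the summed level of 8 cartilage markers on the right, both axes in FPKM on log scales, 1 point for each library (c control, m labelled mutant). Control 3 lies between the other controls and the libraries labelled mutant on the Axin2 axis, at 7.49 FPKM, and on the cartilage axis, at 830.5 FPKM.

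Other cell types known to use these genes were checked by their markers. For T cells, which express Lef1 and Tcf7, the 6 markers summed to between 1.92 and 2.28 FPKM among controls against 1.74 and 2.75 in the others, and overlapped. Cd3d, Cd3e, Cd3g and Cd8a were under 0.5 FPKM in every library, Lck reached 0.627 FPKM, and Cd4 was above 1 FPKM in every library and reached 2.13 FPKM. For epidermis and hair, where Lef1 and Apcdd1 are known to act, the 6 markers summed to between 3.25 and 4.04 FPKM among controls against 1.50 and 4.62 in the others. The keratin genes Krt5, Krt14 and Krt1 were under 0.5 FPKM in every library, Krt15 reached 1.95 FPKM, and Krt71 was at 0 but for 2.31 FPKM in library 2 labelled mutant. Krt10, at 1.83 ± 0.054 and 1.40 ± 0.23 FPKM (SD, n = 3 each), was lower without overlap (limma adjusted p = 0.513). The 6 markers of vessel lining summed to between 182 and 196 FPKM among controls against 210.4 and 216 in the libraries labelled mutant, higher without overlap. Its members were split. Pecam1, Cdh5 and Emcn lay above every control, as did 9.34% of tested genes, and Emcn passed (limma adjusted p = 0.0476). Cldn5, Slc2a1 and Mfsd2a overlapped, with ratios of means of 0.927, 0.922 and 0.805. The 5 osteoclast markers summed to 573 to 644 and 1566 to 1715 FPKM, also higher without overlap, and all 5 rose in limma, beside 0.524% of tested genes. Markers of suture mesenchyme, 5 in number, summed to 222 to 242 and 192 to 248 FPKM, which overlap, and 0 of the 5 passed in limma. At an unadjusted p under 0.05 there were 2, beside 10.5% of all tested genes in either direction. Those 2, Msx2 at 13.5 ± 1.49 and 9.04 ± 1.84 FPKM and Six2 at 34.8 ± 4.57 and 25.6 ± 4.42 FPKM, lay below every control (SD, n = 3 each; limma adjusted p = 0.217 and 0.301). The rest overlapped, with ratios of means of 0.912 for Prrx1, 0.992 for Twist1 and 1.17 for Gli1, which went the other way. The sum of the 6 osteoblast genes, nearly all of it Col1a1, overlapped at 10786 to 12452 and 11389 to 15699 FPKM, but its members went apart. Ibsp, a bone matrix protein gene, rose from 908 ± 66.8 to 1755 ± 260.4 FPKM (SD, n = 3 each; limma adjusted p = 0.0306), Runx2 and Alpl lay above every control with ratios of 1.21 and 1.41 (limma adjusted p = 0.422 and 0.15), and Bglap, the osteocalcin gene, lay below with a ratio of 0.381 (limma adjusted p = 0.217). Sums also overlapped for the 4 meninges genes (59.8 to 483 and 147 to 269 FPKM), the 6 neural genes (45.1 to 48.4 and 13.6 to 94.6), the 5 muscle genes (6653 to 10842 and 5637 to 9420) and the 4 inner ear genes (2.98 to 80.2 and 1.07 to 2.99). Even so, the 2 tested inner ear genes, Oc90 and Otor, lay below every control, as did 6.79% of tested genes (limma adjusted p = 0.637 and 0.577). Both were high in control 2 alone, at 56.6 and 22.5 FPKM, and elsewhere at most 1.00 and 1.995 FPKM. Oc90 reached the filter for testing only through control 2. Aldh1a2, a meninges gene, lay above every control (limma adjusted p = 0.545). The part of any of these cell types or tissues in the differences was not tested.

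The other genes of the pathway, taken from 7 lists, held 78 tested genes of 91, of which 1 rose, 1 fell and 50 had a negative log2 difference (median -0.07). Of the 78 tested genes, 14 lay below every control and 7 above, beside 6.79% and 9.34% of all tested genes. Of the 13 too low to be tested, 4 more lay below, namely Wnt1, Wnt10a, Kremen2 and Sp5. The list of other known targets had 0 of its 8 tested genes past the threshold in limma. At an unadjusted p under 0.05 in limma it held 3, beside 10.5% of all tested genes in either direction. Tnfrsf19, a receptor of the TNF family induced by beta-catenin, had 42.7 ± 3.21 and 29.1 ± 5.97 FPKM (SD, n = 3 each; log2 difference -0.55 ± 0.14 SE, limma adjusted p = 0.195), and passed in the fit without library 3 labelled mutant (adjusted p = 0.0428). Ephb3, an ephrin receptor gene, had 17.7 ± 1.56 and 13.7 ± 1.63 FPKM, while Cd44, a hyaluronan receptor gene also abundant on blood cells, was higher at 44.5 ± 2.73 and 53.05 ± 1.61 FPKM (SD, n = 3 each). Ccnd1, the cyclin D1 gene, overlapped at 37.7 ± 6.797 and 32.8 ± 2.71 FPKM. Sp5, a transcription factor gene closely tied to beta-catenin, was low, at 0.330, 0.783 and 0.271 FPKM among controls against 0.170, 0.106 and 0.118 FPKM in the others, apart without overlap and too low to be tested (exact permutation p = 0.1).

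Among R-spondins and their receptors, Lgr4 went the opposite way from its relative Lgr5. Lgr4 had 11.7, 10.7 and 11.1 FPKM among controls against 17.2, 15.4 and 15.5 FPKM among libraries labelled mutant, and rose by a log2 difference of 0.48 ± 0.07 (SE; limma, Benjamini-Hochberg adjusted p = 0.0405). In mice it is also known as a receptor for RANKL on osteoclasts, whose markers were higher in the same libraries, and their part in this rise was not tested. Leaving out any 1 library ended the call of Lgr4 (limma adjusted p between 0.0974 and 0.159). The ratio of Lgr4 to Lgr5 within a library was 2.67, 2.16 and 2.31 in controls and 6.96, 5.95 and 4.73 in the libraries labelled mutant, apart without overlap (exact permutation p = 0.1). Since Lgr4 lay above every control and Lgr5 below, the ratio had to lie apart, and this p adds nothing to theirs. Lgr6 had 2.13 ± 0.063 and 3.09 ± 0.55 FPKM, higher without overlap and not past the threshold (limma adjusted p = 0.266). Rspo2 had 3.44 ± 0.197 and 2.49 ± 0.36 FPKM, lower without overlap (limma adjusted p = 0.248), while Rspo3 at 17.8 ± 1.03 and 16.4 ± 2.31 FPKM and Rspo1 at 1.75 ± 0.19 and 1.36 ± 0.47 FPKM overlapped (SD, n = 3 each).

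Of the 15 receptor genes, Fzd1, a Frizzled receptor gene, fell, from 30.97 ± 1.75 to 21.2 ± 1.50 FPKM (SD, n = 3 each; log2 difference -0.53 ± 0.07 SE, limma adjusted p = 0.0379). That call too ended without any 1 library (limma adjusted p between 0.0971 and 0.125). Fzd9 had 11.6 ± 3.02 and 5.69 ± 1.19 FPKM and Fzd7 23.8 ± 0.93 and 19.6 ± 1.88 FPKM, both lower without overlap and not past the threshold (limma adjusted p = 0.144 and 0.248). Of the 13 tested ligand and ligand-release genes, 0 passed in limma. At an unadjusted p under 0.05 there were 2, beside 10.5% of all tested genes in either direction. Wnt2b had 2.72 ± 0.30 and 1.89 ± 0.092 FPKM, Wnt11 8.96 ± 0.95 and 7.14 ± 0.60, and Wnt5b, in the opposite direction, 6.65 ± 0.54 and 7.98 ± 1.17 (SD, n = 3 each). Of the 12 tested antagonists, 0 passed in limma, with 2 at an unadjusted p under 0.05, beside the same 10.5% of all tested genes. Dkk1, which blocks LRP receptors and is itself a known target, was higher at 7.06 ± 1.50 and 10.7 ± 2.54 FPKM, and Sfrp4 and Sfrp1, which bind Wnt, had 12.5 ± 0.89 and 10.2 ± 0.81 FPKM and 19.1 ± 0.93 and 16.2 ± 2.29 FPKM (SD, n = 3 each).

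Inside the cell, no gene of the signalling machinery passed the test. In the list of the destruction complex and Dishevelled, 0 of 15 genes passed in limma, 1 was at an unadjusted p under 0.05, and the median log2 difference was -0.02. Ctnnb1, the beta-catenin gene, had 252 ± 15.4 and 287 ± 15.0 FPKM, higher without overlap (limma adjusted p = 0.407), and Dvl2 and Dvl1 had ratios of 0.863 and 0.928. Of the 10 nuclear cofactors, 0 passed in limma and 2 were at an unadjusted p under 0.05. The share of all tested genes at that p, in either direction, was 10.5%, for both lists. Tcf7l2 and Tcf7l1, the other TCF genes, had ratios of 1.17 and 1.06, Bcl9l, a coactivator of beta-catenin, 0.88 and Tle1, a corepressor, 0.858. Tcf7l1 at 24.6 ± 0.78 and 26.2 ± 1.12 FPKM overlapped Tcf7 in the libraries labelled mutant, while Lef1 was the lowest of the 4 (SD, n = 3 each).

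**Figure D5:**
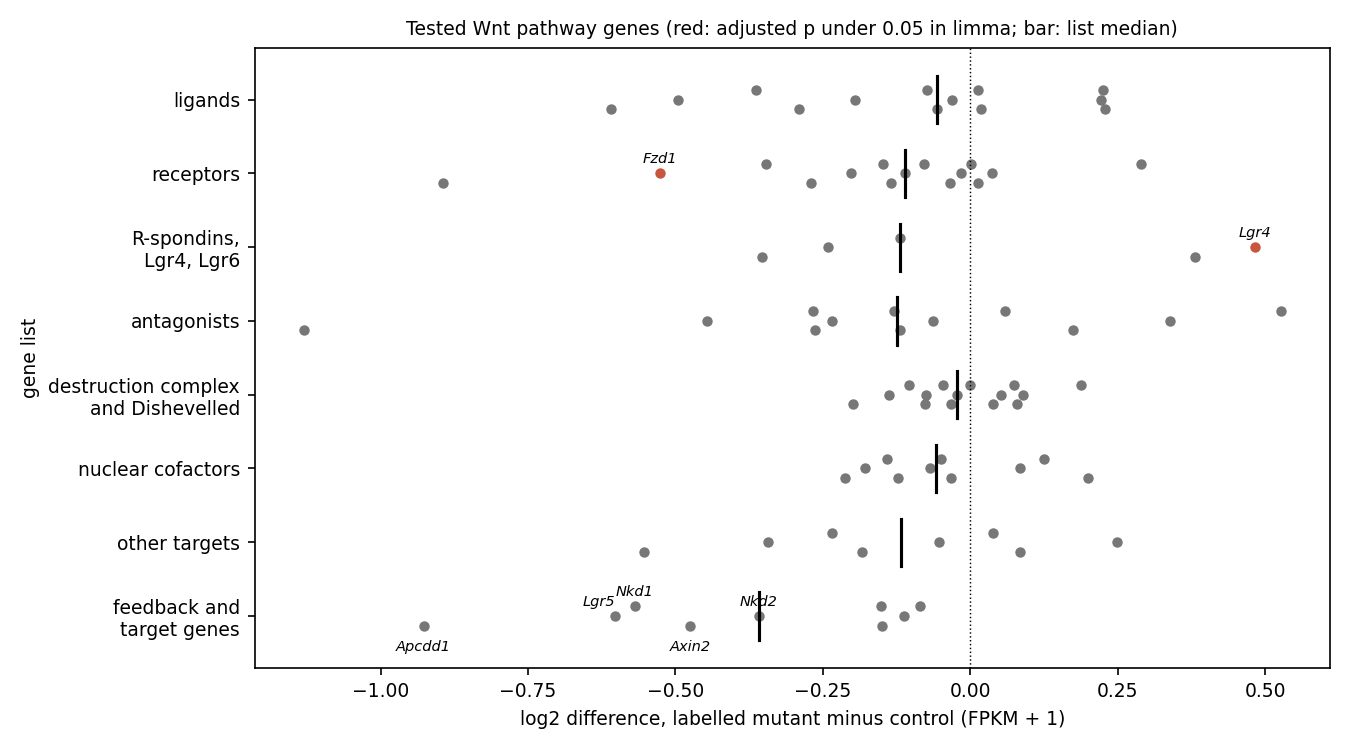
Log2 difference in log2(FPKM + 1) between the libraries labelled mutant and the controls (horizontal axis) for each tested gene of the pathway, by list (vertical axis), with a bar at each list's median. The feedback and target genes have a median of -0.36 and all lie below 0, Fzd1 and Lgr4 are the 2 red genes past the threshold, and the other medians lie between -0.12 and -0.02.

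Over the 6 libraries, the tested genes whose log2 levels were most like those of Axin2 by Pearson r were Farp1 (0.995), Atg4d (0.995), Spry2 (0.993), Extl1 (0.988) and Llgl2 (0.988). Spry2, a feedback inhibitor of FGF signalling, had 10.7, 10.2 and 7.39 FPKM among controls against 7.35, 7.12 and 6.54 FPKM among libraries labelled mutant, so control 3 was again near the low group. The genes least like it were Mastl (-0.99), Mpeg1 (-0.985) and Casp1 (-0.983). Among 13179 genes ranked by r with Axin2, Nkd2 was at rank 139, Apcdd1 at 534, Lgr5 at 888 and Nkd1 at 1135, and Notum, the last of the members, was at 3770. The r are descriptions of these 6 libraries.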

How the data were processed

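Messenger RNA of newborn mouse calvaria was sequenced from 3 controls and 3 libraries labelled mutant, grouped by sample title. The deposited values are FPKM per gene name, made by the authors with Cufflinks 2.2.1 after alignment by TopHat2 2.0.13 with Bowtie2 2.2.3 and handling by SAMtools 0.1.19, on mm10, per the submitters' processing notes. Annotation, strand setting, read totals and any scaling between libraries are not given in the sources used here. Reads of overlapping or antisense genes may therefore be shared. Nothing in the labels says whether libraries came from single animals, so p-values measure the spread between these samples.

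The 13180 of 24346 genes whose mean reached 1 FPKM were fitted as log2(FPKM + 1) on group with limma 3.58.1 in R 4.3.3 (eBayes with trend, two-sided), with Benjamini-Hochberg adjustment at 0.05. This scale understates changes of low genes. FPKM hold gene lengths and could not be turned into whole reads, so no count test was run. Correlations among members with Axin2 were tested by exact permutation over 720 pairings. The procedure was tested on simulated data. Coordinates are from GENCODE M21 on GRCm38, and promoters from RefSeq on GRCm38.p6. Members and lists were chosen with earlier results of these data known. Other genes named are those past the threshold, the 3 with the smallest p in each list, direct partners, and the 5 most and 3 least like Axin2. The 5-letter motif, the cartilage correlations and the correlations without control 2 were chosen after seeing the data. Other settings tried were another pseudocount and filter, scalings, variance models, weights, a replicate block, a sex term and leaving out each library.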

Additional observations from a re-analysis of the deposited data

How the results depend on the processing

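The differences of Axin2, Nkd1, Nkd2, Apcdd1, Lgr5, Tcf7 and Znrf3 stayed below 0 in each setting tried, and those of Notum and Lef1 turned positive without control 2, at 0.073 and 0.0315. When 1 library was left out, their lowest values were -0.244 and -0.26, without control 1. The number of members past the threshold stayed at 0 in 15 of 16 settings and was 1 (Lgr5) with library weights. The number lower without overlap was 5 with all libraries and ran from 5 to 8 when 1 library was left out, where the share of tested genes lay between 10.9% and 12.9%. With the filter at 5 FPKM, 5 members were tested and 5 were lower. In the other pathway lists, both the gene that rose and the gene that fell were lost (0 and 0) with no filter on low values, without a trend and with the replicate block, and the fall was lost (0) with the sex term. When 1 library was left out, 0 rose, and between 0 and 1 fell. Same-numbered libraries did not deviate together (r of 0.0163, -0.0714 and 0.0152). Such r cannot show whether the design paired them, and the labels do not say. In deviations from group means, r with Axin2 turned to -0.0394 for Nkd1, -0.0323 for Tcf7 and -0.37 for Lgr5, leaving 6 of 9 positive. Without control 2 it turned to -0.70 for Notum and -0.47 for Lef1, leaving 7 of 9. The cause was not tested in any of these. With 3 libraries a group an exact test cannot go under p = 0.1, and absolute depth is not known.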
